A study of Mus musculus with 6 samples.

Results

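The Prss and Tmprss genes encode serine proteases and protease-like proteins, and their transcripts were followed through spermatogenesis on 6 arrays of purified mouse germ cells. Members were taken by name: every transcript cluster of the array that was annotated with a single gene whose symbol is Prss or Tmprss followed by a digit, without Prss30. This gave 54 genes of the 19938 genes named on the array, each with 1 cluster. Of the 54, 37 are Prss and 17 are Tmprss genes. Tmprss12 was grouped with the testis genes below.

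Most of these enzymes share the trypsin fold, in which a serine, a histidine and an aspartate form the active site, and most are made as inactive precursors that another protease cuts. Prss proteins are mainly secreted or held at the cell surface, and Tmprss proteins are anchored by a membrane-spanning segment near the amino terminus. Many mouse Prss genes are expressed mainly in the testis, where their products have been placed in the acrosome, the enzyme-filled cap of the sperm head, or on the sperm surface, and loss of some of them impairs the passage of sperm into the oviduct.

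The cells came from Rnf8 knockout (KO) and wild-type (WT) mice, all on a C57BL/6 background. Rnf8 encodes a ubiquitin ligase that acts on histones in meiotic and postmeiotic germ cells. There was 1 array each of KO and WT round spermatids, the early haploid cells formed by meiosis, and 2 arrays each of KO and WT pachytene spermatocytes, which are in meiotic prophase. Cells were enriched by gravity sedimentation from 3 to 4 males. The labels do not give the age of the mice, the structure of the knockout allele or separate preparations for the replicate arrays, so p-values measure the spread between these arrays, which may be technical. Values below are log2 of the deposited array intensity. Differences are taken between arrays for one gene, not between genes, since probes differ in brightness. Where a gene is called dim, its values are set against the quartiles or the median of its arrays. Summed intensities of markers are not logged and weigh the brightest probes most.

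The cell type labels were checked against marker lists. Of 12 round spermatid markers 10 passed as higher in round spermatids (the threshold is explained below), and of 13 pachytene markers 7 passed as lower and 2 as higher. KO pachytene array 1 stood above KO pachytene array 2 for all 12 round spermatid markers, by a median of 0.47, while the WT pachytene arrays differed by a median of 0.10. Markers of somatic testis cells also differed between the cell types: the summed intensity of 6 Leydig markers was 1277 (KO) and 1044 (WT) in round spermatids and between 4689 and 6905 on the pachytene arrays, and that of 11 Sertoli markers was 6484 and 5355 in round spermatids and between 8959 and 11129 on the pachytene arrays. Of these, all 6 Leydig and 7 of 11 Sertoli markers passed as lower. Other lists went the opposite way. The summed intensity of 8 macrophage markers was 1491 (KO) and 1635 (WT) in round spermatids and between 1047 and 1129 on the pachytene arrays, and 3 of the 8 passed as higher, C1qb at 1.00, Adgre1 at 0.80 and Lyz2 at 0.59. That of 8 peritubular and vessel markers was 4280 and 3394 in round spermatids and between 2098 and 2464 on the pachytene arrays, where Dcn passed as higher at 2.86 and the 7 others lay between -0.22 and 0.10 without passing. Of 10 spermatogonial markers 2 passed as higher, and of 3 mast cell markers none passed. No marker had a value of 0. The array's cluster for the targeted gene lists Rnf8 together with a second symbol, Gm28043. It was at 7.86 and 8.05 on the KO and 8.51 and 8.86 on the WT pachytene arrays, and at 7.50 on the KO and 7.78 on the WT round spermatid array. KO was below WT in each cell type. The labels do not say which part of the gene was deleted, so this is a limited check.

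Between the cell types, part of the family was higher and part lower. The comparison asks how transcript levels in round spermatids differ from those in pachytene spermatocytes over both genotypes. It used limma, a linear model fitted to all genes with log2 6 or more on at least 1 array, and a gene was called at a Benjamini-Hochberg adjusted p under 0.05. Of the 54 genes, 49 reached that level. In round spermatids 12 of them rose (24.5%) and 6 fell (12.2%), against 17.8% of all 17925 tested genes that rose and 17.1% that fell. These 18 are 36.7% of the 49 and 33.3% of the 54, near the 34.9% called among all tested genes. Of the 49 genes, 10 (20.4%) rose at least 2-fold, against 7.19% of all tested genes, and none fell by that much, against 4.18%. The 10 include Tmprss11b, which reached the expression minimum only on the spermatid arrays, so it had to differ to be tested. These counts depend on single arrays: without KO pachytene array 2, 6 of the 49 rose at least 2-fold (6.79% of all tested genes), since Prss37, Prss46, Prss50 and Prss55 then lay between 0.89 and 0.99. With a second quantile normalization 7 did (7.08%). With 32 added to the intensity 8 did (6.49%), without Prss55 and Tmprss11b. Prss43 fell at least 2-fold without KO pachytene array 1 or without the KO round spermatid array. Both spermatid arrays lay above all 4 pachytene arrays in 16 genes (32.7% of the 49) and below them in 7 (14.3%). Over all tested genes these shares were 24.1% and 26.4%. In a bulk preparation, fewer cells of a type and less RNA per cell cannot be told apart.

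**Figure D1:**
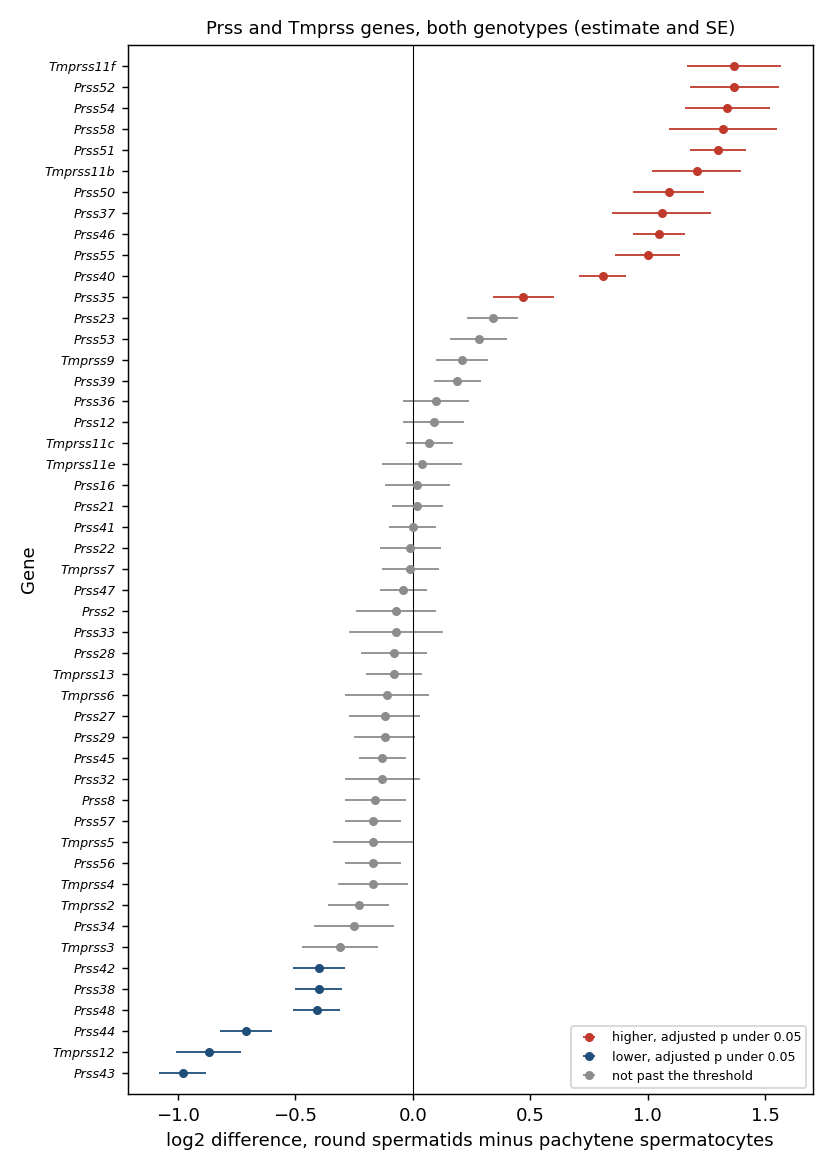
Log2 difference between round spermatids and pachytene spermatocytes (x axis) for the 49 tested Prss and Tmprss genes (rows), with points for the limma estimate over both genotypes and bars for its SE. The 12 genes that rose lie between 0.47 and 1.37, the 6 that fell between -0.98 and -0.40, and the other 31 between -0.31 and 0.34.

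The calls lay mainly among 16 genes grouped for known testis or sperm expression, a grouping made with earlier results of these data in view. Of these 16 genes 8 rose, 4 fell and 4 did not pass, so 75% were called, against 34.9% of all tested genes. Of the 10 tryptase-like and epithelial genes none passed, with differences between -0.25 and 0.28. None of these 10 lay above the upper quartile on all 6 arrays, against 11 of the 16 testis genes. Under the array median on all 6 arrays were 5 of the 10. Of 12 tested Tmprss genes other than Tmprss12 2 rose (16.7%), and of 9 other secreted Prss genes 1 rose and 2 fell (33.3%). Of the 12 Tmprss genes 9 lay under the median on all 6 arrays. The groups were not matched for brightness, so few calls among dim genes do not show that those genes did not change. Of 2 tested genes of the digestive trypsin group 1 rose (50%). That gene, Prss58, lay above the upper quartile on all 6 arrays, so the group name does not describe its expression here.

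The genes that rose are described first. The macrophage sum and Dcn given above were also higher in round spermatids, and their part in the 12 rises was not tested. On chromosome 14, Prss55, Prss51 and Prss52 follow each other with only a noncoding gene between them, and all 3 rose. Prss52, also called Tesp3, was at 12.09 on the KO and 12.12 on the WT round spermatid array, against 11.16 and 10.56 on the KO and 10.42 and 10.81 on the WT pachytene arrays. Both spermatid arrays lay above every pachytene array, and the 2 KO pachytene arrays were 0.60 apart. The difference was 1.37 (SE 0.19, adjusted p = 0.00114) by limma, or 2.58-fold.

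Prss51 was at 10.08 in KO and 10.27 in WT round spermatids, 8.89 and 8.86 in KO pachytene spermatocytes, and 9.01 and 8.77 in WT pachytene spermatocytes. Its pachytene values all lay within 0.24 of each other, well below both spermatid values. The difference was 1.30 (SE 0.12, adjusted p = 0.000221), or 2.46-fold, and it had the smallest adjusted p of the family in limma.

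Prss55, a membrane-anchored protease that mouse sperm need to pass into the oviduct, was at 12.45 (KO) and 12.50 (WT) in round spermatids, against 11.68 and 11.27 (KO) and 11.37 and 11.57 (WT) in pachytene spermatocytes. The spermatid arrays did not overlap the pachytene arrays. It differed by 1.00 (SE 0.14, adjusted p = 0.00113) in limma.

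Prss37 and Prss58 lie on chromosome 6, as do the digestive trypsin genes. Prss37 encodes a protease-like protein without a complete active site, which mouse sperm also need to enter the oviduct. It was at 12.02 on the KO and 12.14 on the WT round spermatid array, against 11.38 and 10.55 on the KO and 10.94 and 11.19 on the WT pachytene arrays. The KO pachytene pair was 0.83 apart, and the higher of the 2 still lay below both spermatid values. The limma difference was 1.06 (SE 0.21, adjusted p = 0.00592). It lost its call without the WT or without the KO round spermatid array, at adjusted p of 0.0764 and 0.06.

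Prss58, also called Tryx3, was at 11.43 in KO and 11.62 in WT round spermatids, 10.49 and 9.56 in KO pachytene spermatocytes, and 10.30 and 10.48 in WT pachytene spermatocytes. Here too KO pachytene array 2 was the lowest, 0.93 under array 1. The difference was 1.32 (SE 0.23, adjusted p = 0.00317), or 2.49-fold.

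Prss54, also called Klkbl4 and the only member on chromosome 8, was at 12.14 (KO) and 12.29 (WT) in round spermatids, against 11.19 and 10.63 (KO) and 11.01 and 10.68 (WT) in pachytene spermatocytes. The arrays of the 2 cell types did not overlap, and it differed by 1.34 (SE 0.18, adjusted p = 0.000889) in limma, or 2.53-fold. Prss40, also called Tesp2 and known from the acrosome of mouse sperm, was at 11.16 on the KO and 11.12 on the WT round spermatid array, against 10.27 and 10.37 on the KO and 10.37 and 10.32 on the WT pachytene arrays. Its 4 pachytene arrays were nearly equal, and it rose by 0.81 (SE 0.10, adjusted p = 0.000709), or 1.75-fold.

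Prss39, or Tesp1, another acrosomal protein, lies near Prss40 on chromosome 1, with Cfc1 between them, and did not pass. It was at 13.25 in KO and 13.27 in WT round spermatids, 12.97 and 13.05 in KO pachytene spermatocytes, and 13.14 and 13.13 in WT pachytene spermatocytes. Both spermatid arrays were above the pachytene arrays by a small margin, with a difference of 0.19 (SE 0.10, adjusted p = 0.217). It passed with a trended and robust prior in limma (adjusted p = 0.0342).

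Besides Prss58, given above, Prss35 and 2 Tmprss11 genes rose outside the testis group. Prss35, a secreted protein known from the ovary, was at 7.73 (KO) and 7.74 (WT) in round spermatids, against 7.21 and 7.52 (KO) and 7.24 and 7.12 (WT) in pachytene spermatocytes, and differed by 0.47 (SE 0.13, adjusted p = 0.0231). It lost its call without either WT pachytene array, without either spermatid array (adjusted p between 0.0634 and 0.323 in limma over these) and with the replicate block (0.0814). Tmprss11f and Tmprss11b are epithelial proteases that sit side by side in the Tmprss11 cluster on chromosome 5. Tmprss11f was at 7.08 on the KO and 7.35 on the WT round spermatid array, against 6.20 and 5.48 on the KO and 5.77 and 5.94 on the WT pachytene arrays, and Tmprss11b was at 6.64 in KO and 7.40 in WT round spermatids, 5.97 and 5.75 in KO pachytene spermatocytes, and 5.73 and 5.79 in WT pachytene spermatocytes. The pachytene values of both lie under the lower quartile of their arrays (between 6.15 and 6.28), except Tmprss11f on KO array 1, just above it. Tmprss11b reached the expression minimum only on the spermatid arrays, so it had to differ to be tested, and Tmprss11f reached it on those arrays and on KO pachytene array 1. Their limma differences were 1.37 (SE 0.20, adjusted p = 0.0012) and 1.21 (SE 0.19, adjusted p = 0.00181).

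The 5 other Tmprss11 genes did not share this. Tmprss11c at 0.07 and Tmprss11e at 0.04 did not pass, and Tmprss11a, Tmprss11d and Tmprss11g stayed under the minimum on all 6 arrays.

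**Figure D2:**
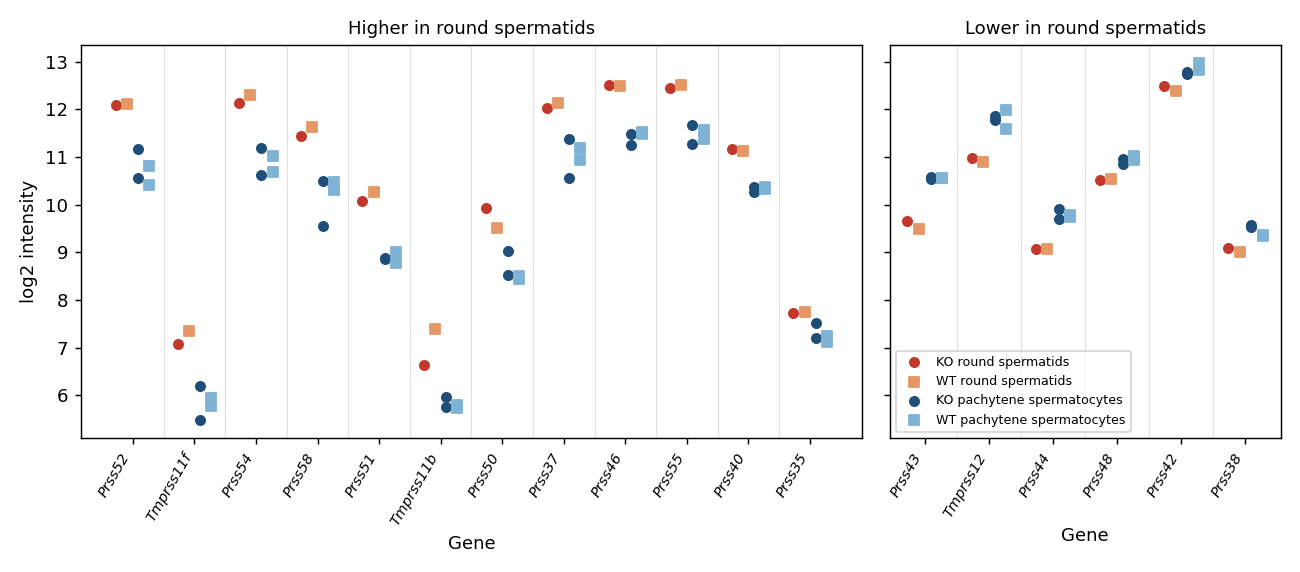
Log2 intensity (y axis) on each array for the 12 genes that rose (left) and the 6 that fell (right) in round spermatids, with 1 point per array and a colour and shape for each of the 4 groups. In all 18 genes the 2 spermatid points lie outside the range of the 4 pachytene points, and for Prss37 and Prss58 the KO pachytene points are 0.83 and 0.93 apart.

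The genes that fell include 3 neighbours on chromosome 9, Prss42, Prss44 and Prss43, also called Tessp2, Tessp4 and Tessp3. These are testis proteases, and Prss42 and Prss43 have been linked to the progress of meiosis in the mouse. Prss43 was at 9.66 on the KO and 9.49 on the WT round spermatid array, against 10.53 and 10.58 on the KO and 10.55 and 10.56 on the WT pachytene arrays. The pachytene arrays agreed within 0.05 and both spermatid arrays lay far below them. The difference was -0.98 (SE 0.10, adjusted p = 0.000362), and pachytene values were 1.98-fold higher.

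Prss44 was at 9.08 in KO and 9.08 in WT round spermatids, 9.70 and 9.90 in KO pachytene spermatocytes, and 9.79 and 9.75 in WT pachytene spermatocytes. Its arrays did not overlap between the cell types, and it fell, with a limma difference of -0.71 (SE 0.11, adjusted p = 0.00168). Prss42 was at 12.48 (KO) and 12.38 (WT) in round spermatids, against 12.78 and 12.73 (KO) and 12.82 and 12.98 (WT) in pachytene spermatocytes. It fell less than its neighbours, with a difference of -0.40 (SE 0.11, adjusted p = 0.0285). Its call was lost without either WT pachytene array or either spermatid array (adjusted p between 0.0730 and 0.442 in limma over these) and with the replicate block (0.0621).

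The cluster runs on with Prss45, Prss46 and Prss50, and the direction changes along it. Prss45, or Tessp5, was at 11.10 on the KO and 10.90 on the WT round spermatid array, against 11.17 and 11.31 on the KO and 11.01 and 11 on the WT pachytene arrays. Its spermatid and pachytene values overlapped, and the difference was -0.13 (SE 0.10, adjusted p = 0.426). Prss46, or Tessp6, was at 12.50 in KO and 12.48 in WT round spermatids, 11.48 and 11.25 in KO pachytene spermatocytes, and 11.52 and 11.49 in WT pachytene spermatocytes, and rose by 1.05 (SE 0.11, adjusted p = 0.000395). Prss50, also called Tsp50, whose human protein has a threonine in place of the usual active-site serine, was at 9.92 (KO) and 9.51 (WT) in round spermatids, against 9.02 and 8.53 (KO) and 8.45 and 8.51 (WT) in pachytene spermatocytes. It rose by 1.09 (SE 0.15, adjusted p = 0.00101), and its highest pachytene value, on KO array 1, still lay under both spermatid values. In chromosomal order the limma differences of the 6 genes were therefore -0.40, -0.71, -0.98, -0.13, 1.05 and 1.09, so 3 adjacent genes fell, 1 did not pass, and 2 adjacent genes rose.

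**Figure D3:**
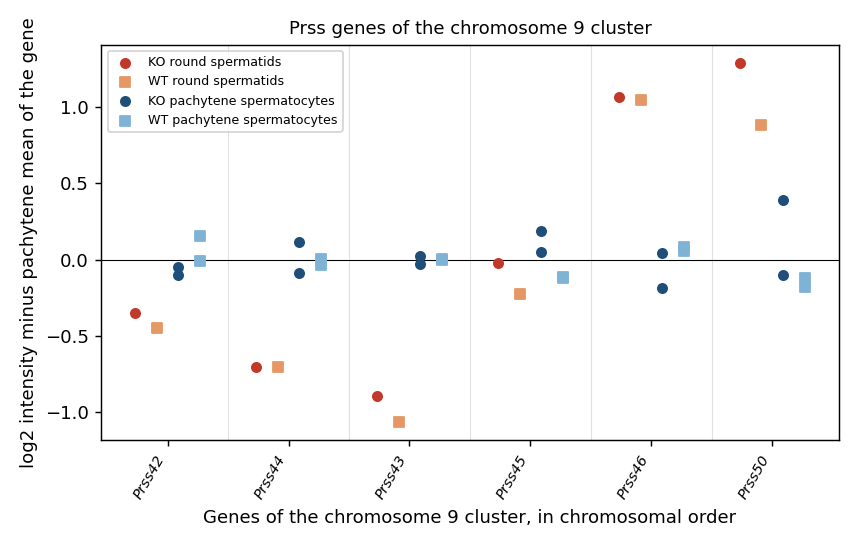
Log2 intensity of each array minus the gene's mean over the 4 pachytene arrays (y axis) for the 6 neighbouring Prss genes of chromosome 9 in chromosomal order (x axis), with 1 point per array and a colour and shape per group. The spermatid points lie below 0 for Prss42, Prss44 and Prss43, near 0 for Prss45 and above 0 for Prss46 and Prss50.

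The promoters of this cluster are shown because adjacent genes moved in opposite directions. RefSeq promoter windows (GRCm38.p6) were matched for 39 of the 54 genes, and for 4 of the 6 in the cluster: Prss42, which fell, Prss45, which did not pass, and Prss46 and Prss50, which rose. The 250 bases before each start are given 5′ to 3′ on the plus strand, at chr9:110797935-110798184, chr9:110834338-110834587, chr9:110844256-110844505 and chr9:110857714-110857963, with matches to the motifs searched in capitals.
Prss42: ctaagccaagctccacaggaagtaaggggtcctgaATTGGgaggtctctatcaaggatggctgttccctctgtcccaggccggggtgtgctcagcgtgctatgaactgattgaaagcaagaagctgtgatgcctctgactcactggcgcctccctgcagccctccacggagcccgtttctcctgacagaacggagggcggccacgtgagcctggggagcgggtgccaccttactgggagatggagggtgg
Prss45: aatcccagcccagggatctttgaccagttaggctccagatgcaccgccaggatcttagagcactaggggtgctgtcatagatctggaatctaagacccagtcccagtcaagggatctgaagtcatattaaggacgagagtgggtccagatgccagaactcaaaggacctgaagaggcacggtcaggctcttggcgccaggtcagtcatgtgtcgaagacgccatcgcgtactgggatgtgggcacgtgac
Prss46: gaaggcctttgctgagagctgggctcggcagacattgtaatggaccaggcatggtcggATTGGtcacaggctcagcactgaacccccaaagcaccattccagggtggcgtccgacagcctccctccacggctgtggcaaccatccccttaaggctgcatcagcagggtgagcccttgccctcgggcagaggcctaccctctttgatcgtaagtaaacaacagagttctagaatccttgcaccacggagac
Prss50: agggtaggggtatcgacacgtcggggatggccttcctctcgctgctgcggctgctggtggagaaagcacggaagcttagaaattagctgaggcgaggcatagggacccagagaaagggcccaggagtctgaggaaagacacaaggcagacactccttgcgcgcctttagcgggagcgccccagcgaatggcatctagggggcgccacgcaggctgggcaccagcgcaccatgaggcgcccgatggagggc
The motifs were searched on both strands: the cAMP response element TGACGTCA, which regulators of the CREM type bind, its shorter form TGACG, which lies within it, the Myb-type AACTGNC, the CCAAT box CCAAT and the TATA box TATAAA. Prss42, which fell, and Prss46, which rose, each held 1 CCAAT box on the reverse strand, and Prss45 and Prss50 held no match. Over all 32851 windows of this length the CCAAT box was in 33.8%, and it was in 15 of the 39 matched genes (38.5%). It was in 5 of the 9 matched genes that rose and in 1 of the 3 that fell. TGACGTCA was in 1.55% of all windows and in none of the 39 genes. TGACG was in 17.8% of windows and in 8 genes, among them Prss35 and Tmprss11f, which rose, and Tmprss12 and Prss38, which fell. AACTGNC was in 10.6% of windows and in 6 genes, with Prss37 and Prss40 among those that rose. TATAAA was in 12.4% of windows and in 4 genes, none of which passed in either direction. A match describes the letters of the window and nothing more.

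Tmprss12, a testis member of the Tmprss family that male mice need for fertility, was the other large fall. It was at 10.98 on the KO and 10.89 on the WT round spermatid array, against 11.85 and 11.78 on the KO and 11.58 and 11.99 on the WT pachytene arrays. The 2 spermatid values were close together and below every pachytene value. The difference was -0.87 (SE 0.14, adjusted p = 0.00181), and pachytene values were 1.83-fold higher. Smaller falls were seen in Prss48 and Prss38. Prss48 was at 10.52 (KO) and 10.54 (WT) in round spermatids, against 10.95 and 10.85 (KO) and 10.94 and 11.03 (WT) in pachytene spermatocytes, and Prss38 was at 9.10 in KO and 9.01 in WT round spermatids, 9.58 and 9.54 in KO pachytene spermatocytes, and 9.36 and 9.35 in WT pachytene spermatocytes. They differed by -0.41 (SE 0.10, adjusted p = 0.0167) and -0.40 (SE 0.10, adjusted p = 0.0167) in limma. Without either spermatid array neither passed, at adjusted p between 0.137 and 0.250. Prss38 was also lost without WT pachytene array 1 (0.0560), Prss48 without WT pachytene array 2 (0.0615), and both with the replicate block (0.0611 and 0.0554). The summed Leydig and Sertoli markers given above were also lower in round spermatids, and their part in the 6 falls was not tested.

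Prss21 and Prss41 complete the testis group, and neither passed. Prss21, or testisin, which is anchored on the sperm surface, was at 11.56 on the KO and 11.77 on the WT round spermatid array, against 11.43 and 11.56 on the KO and 11.86 and 11.75 on the WT pachytene arrays, a difference of 0.02 (SE 0.11, adjusted p = 0.917). Prss41, or Tessp1, was at 8.66 in KO and 8.90 in WT round spermatids, 8.58 and 8.64 in KO pachytene spermatocytes, and 8.91 and 8.99 in WT pachytene spermatocytes, and its difference was 0.00 (SE 0.10, adjusted p = 1.00). In both genes the spermatid values lay inside the pachytene range.

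The 31 tested genes that did not pass include genes known from other tissues. Among them were prostasin, Prss8, which activates the epithelial sodium channel (-0.16), the neuronal protease neurotrypsin, Prss12 (0.09), the thymic peptidase Prss16 (0.02), the uterine implantation proteases Prss28 (-0.08) and Prss29 (-0.12), the mast cell protease Prss34 (-0.25) and the liver protease Tmprss6 (-0.11). Prss23 was closest to the threshold, at 0.34 (SE 0.11, adjusted p = 0.0514), and passed with no filter, with the filter at log2 7, with a second quantile normalization and without KO pachytene array 1. The 5 genes under the minimum were Prss3, Tmprss11a, Tmprss11d, Tmprss11g and Tmprss15, the last encoding enteropeptidase, which activates trypsin in the gut. Their values ran from 5.15 to 5.90. Just above the minimum was Tmprss11c, whose highest value was 6.20.

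Within each genotype the same members moved. In the limma fit with 4 groups 13 of the 49 genes passed in KO and 13 in WT, against 15.5% and 20% of all tested genes. In each genotype 10 rose and 3 fell, against 8.36% and 7.18% of all tested genes in KO and 11.5% and 8.45% in WT. They were the same 13 genes: Prss40, Prss46, Prss50, Prss51, Prss52, Prss54, Prss55, Prss58, Tmprss11b and Tmprss11f rose in both, and Prss43, Prss44 and Tmprss12 fell in both. As examples, Prss52 was at 1.23 in KO and 1.51 in WT, Prss46 at 1.13 and 0.98, Prss43 at -0.90 and -1.06, and Tmprss12 at -0.84 and -0.90. Each of these rests on 1 spermatid array, assumed to vary like the pachytene pairs. Each within-genotype fit is the same as the fit that leaves out the spermatid array of the other genotype. It is therefore not a check beside the leave-out fits described elsewhere. Tmprss11b, among the genes that rose, had to differ to be tested, as given above. The interaction, which tests whether the difference between cell types depends on genotype, passed none of the 49 genes in limma, against 0% of all tested genes at that threshold. At an unadjusted p under 0.05 it held 1 of the 49, against 0.725% of all tested genes. That gene was Tmprss11b, whose rise was 0.78 in KO and 1.64 in WT, an interaction of -0.86 (SE 0.27, unadjusted p = 0.0152, adjusted p = 1.00). Its pachytene values lie near the dim end of the arrays, as given above.

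Other genes of the pathway were taken from lists. Of 55 tested serine proteases of the trypsin fold outside these families, 5 rose and 1 fell (10.9%, against 34.9% of all tested genes), with the granzyme gene Gzmn at 2.31, the protein C gene Proc at 0.64, the coagulation factor gene F11 at 0.62 and Corin, a cardiac protease, at -0.39. Among the 5, C1s1 reached the expression minimum only on the spermatid arrays, so it had to differ to be tested. The median difference of the 55 was -0.06, against -0.01 for the 49 Prss and Tmprss genes and -0.06 for all tested genes. Many of the 55 lay near or under the median of their arrays, which was between 7.62 and 7.77 in log2. The shares of called genes were not matched for brightness. Acrosin (Acr), the main acrosomal protease of this fold, was at 12.94 on the KO and 12.92 on the WT round spermatid array, against 12.80 and 12.67 on the KO and 12.82 and 12.92 on the WT pachytene arrays, a difference of 0.13 (SE 0.11, adjusted p = 0.420 in limma).

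Of 42 tested serine protease inhibitors of the Serpin, Spink and Spint families 8 rose and 4 fell (28.6%, against 34.9% of all tested genes). Their median difference was 0.02. Among the 8, Serpina7 and Serpini2 reached the expression minimum only on a spermatid array, so they too had to differ to be tested. Serping1, the inhibitor of complement protease C1, rose by 1.68 and Serpinb9, an inhibitor of granzyme B, by 1.13. Serpina5, or protein C inhibitor, which mouse sperm production requires, fell: it was at 7.86 in KO and 7.28 in WT round spermatids, 9.16 and 9.11 in KO pachytene spermatocytes, and 8.99 and 8.92 in WT pachytene spermatocytes, a difference of -1.48 (SE 0.12, adjusted p = 0.000190 in limma). Spint2, an inhibitor of membrane-bound serine proteases, was at -0.58 (adjusted p = 0.00672). Spink2, which keeps acrosin inactive, was at -0.01 and did not pass (adjusted p = 0.968).

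Of 22 acrosome genes 9 rose and 2 fell (50%, against 34.9% of all tested genes), with a median of 0.21. The largest change was in Gopc, needed to form the acrosome in mice, which fell, at -1.62, and Serpina5 is the other fall. The rises include Spaca3 at 1.48, the hyaluronidase gene Spam1 at 1.39 and the zona receptor gene Zp3r at 1.32. Another list held 13 tested genes for the maturation of the sperm protein ADAM3 and for oviduct transit, which also needs Prss37 and Prss55. Of these 4 rose and 2 fell (46.2%, against 34.9% of all tested genes), with a median of -0.03. Adam1a rose by 1.85 and the chaperone Calr3 by 1.44, and Tex101 was at -0.86, while Adam3 itself was at 0.03 (adjusted p = 0.843). These lists, too, were put together with earlier results of these data known.

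Between genotypes, no member passed. In pachytene spermatocytes the question is what the loss of Rnf8 does to these transcripts in meiosis. In limma 0 of the 49 genes passed, with 0 at an unadjusted p under 0.05, against 0% and 2.4% of all tested genes. The KO arrays lay above both WT arrays for 7 genes and below both for 5, against 14.9% and 10.2% of all tested genes, so the members' shares of 14.3% and 10.2% lay near the background.

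The largest differences among genes whose arrays did not overlap were in 2 testis genes of chromosome 17, the chromosome that also carries Rnf8. Prss41 was at 8.58 and 8.64 on the KO and 8.91 and 8.99 on the WT pachytene arrays, and 8.66 on the KO and 8.90 on the WT round spermatid array. The KO values were below the WT values in both cell types, with a pachytene difference of -0.34 (SE 0.15, unadjusted p = 0.0506, adjusted p = 1.00). Prss21 was at 11.43 and 11.56 on the KO and 11.86 and 11.75 on the WT pachytene arrays, and 11.56 on the KO and 11.77 on the WT round spermatid array. It showed the same order, with -0.31 (SE 0.15, unadjusted p = 0.0774, adjusted p = 1.00). Of the 10 members on chromosome 17, the 8 others were higher on the KO than on the WT round spermatid array. Among the genes lower in KO, these were followed by Prss42 at -0.15, Prss46 at -0.14 and Prss39 at -0.13.

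Above WT, Prss50 was at 9.02 and 8.53 on the KO and 8.45 and 8.51 on the WT pachytene arrays, and 9.92 on the KO and 9.51 on the WT round spermatid array. KO pachytene array 1 lay well above the WT values and array 2 just above them. The difference was 0.30 (SE 0.19, unadjusted p = 0.170, adjusted p = 1.00). Tmprss2, a prostate and airway protease, was at 7.38 and 7.75 on the KO and 7.27 and 7.28 on the WT pachytene arrays, and 7.41 on the KO and 6.97 on the WT round spermatid array, a pachytene difference of 0.29. Prss8 and Prss45 followed at 0.24 each and Prss22, an airway tryptase, at 0.23.

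Over both cell types, the additive limma fit also passed 0 of the 49 genes (0% of all tested genes), with 4 of them at an unadjusted p under 0.05 (8.16%, against 5.46% of all tested genes). The 4 were Prss41 at -0.31 (SE 0.10), Prss21 at -0.28 (SE 0.10), Tmprss2 at 0.34 (SE 0.12) and Prss50 at 0.33 (SE 0.14), and their adjusted p lay between 0.841 and 0.892. In 7 genes (14.3%) the KO arrays lay above their WT counterparts in both cell types and in 3 (6.12%) below. Over all tested genes these shares were 10.9% and 7.09%. The 7 were Prss8, Prss22, Prss38, Prss45, Prss47, Prss50 and Tmprss2, and the 3 were Prss21, Prss39 and Prss41.

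In round spermatids 1 KO array stands against 1 WT array, with no replicate check. None of the 49 genes differed 2-fold, against 0.0335% of all tested genes higher and 0.351% lower in KO. At 1.5-fold none was higher, against 0.391% of all tested genes, and 1 was lower, against 1.52%. That gene was Tmprss11b, at 6.64 in KO and 7.40 in WT. The 12 genes that rise in round spermatids differed between -0.76 and 0.41, with 3 of the 12 higher on the KO array. Apart from Tmprss11b and Prss50 they lay between -0.26 and 0.04.

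Of the 49 genes 34 were higher on the KO than on the WT round spermatid array (69.4%, against 59.1% of all tested genes), including all 10 tryptase-like and epithelial genes (median 0.25) but 7 of 16 testis genes (median -0.02). With a second quantile normalization these were 9 of 10 and 9 of 16, with medians of 0.13 and 0.03, so the direction of the testis genes depends on the scaling. Of the other groups, 10 of 12 Tmprss genes (median 0.22) and 6 of 9 other secreted genes (0.09) were higher in KO. So was 1 of 2 digestive trypsin genes (-0.04). Other proteases of the trypsin fold had a median of 0.14, against 0.05 for all tested genes. Values of the tryptase-like genes ran from 6.36 to 8.78, and 5 of the 10 lay under the array median on all 6 arrays. The same 10 tryptase-like genes were also all higher on KO pachytene array 2 than on array 1, by 0.23 to 0.72. The array median, in log2, was also higher on KO pachytene array 2 (7.77 against 7.63). It was 7.70 on the KO and 7.62 on the WT round spermatid array, and its part in these differences was not tested. In contrast, 10 of the 12 genes that rose in spermatids were lower on KO pachytene array 2 than on array 1. The median over all 12 was 0.45 (array 1 minus array 2), while the WT pachytene arrays differed in these genes by a median of -0.07. All 12 round spermatid markers differed between the KO pachytene arrays in the same direction, as given above, and their part in this was not tested.

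**Figure D4:**
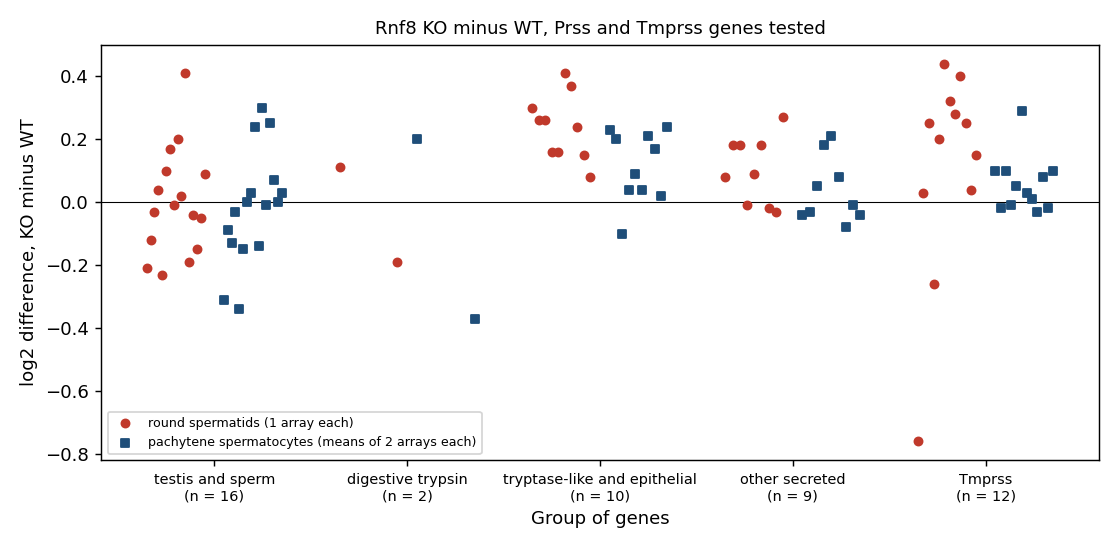
Log2 difference between KO and WT (y axis) for the 49 tested genes in 5 groups (x axis), with circles for the single pair of round spermatid arrays and squares for the means of 2 pachytene arrays per genotype. In round spermatids the tryptase-like genes lie between 0.08 and 0.41 and the Tmprss genes between -0.76 and 0.44. No gene passed the test in pachytene spermatocytes.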

How the data were processed

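Each transcript cluster has 1 deposited intensity per array, unlogged. The submitters' processing notes name RMA and Affymetrix Expression Console 1.1, without their settings. Median intensity per array lay between 197.3 and 217.7. The number of arrays limits the precision, and dim probes have only an uncertain level.

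Log2 of the intensity was taken. Of 35556 clusters 21789 had 1 gene symbol in the platform annotation, 1621 had several and 12146 were not listed. By gene identifier 21698 matched the RefSeq table of GRCm38.p6, used for chromosomes and gene order. For 19938 genes the cluster of highest mean was kept. The 2 clusters that list Prss1 and Prss3 beside other genes were left out, so Prss1 is not described, and Prss3 only by its own cluster.

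limma 3.58.1 in R 4.3.3 (lmFit, eBayes, Benjamini-Hochberg over 17925 genes) fitted genotype plus cell type (3 residual degrees of freedom) and, for pachytene, within-genotype and interaction contrasts, 4 groups (2 residual degrees of freedom). The code was tested on simulated data. Alternatives were another filter or none, a second quantile normalization, 32 added to the intensity, a trended and robust prior, the cluster of highest variance, a replicate block and each array left out. Between the cell types, a fit with 4 groups was a further alternative. Arrays of the same number are not known to share animals: their deviations correlated at -0.23 across genes. Full values are given for genes that passed between the cell types and for the testis group, and for genotype the 5 largest differences in each direction without overlap. The members and lists were chosen with earlier results of these data known.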

Additional observations from a re-analysis of the deposited data

Results flagged for a closer look

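In 3 genes the arrays of one comparison moved opposite ways in 2 groups, and the limma interaction, which tests the difference between the groups, passed none of them (0.24 for Prss42, 0.15 for Prss46 and 0.11 for Prss41, adjusted p = 1.0 each). Prss42 was lower on both KO than on both WT pachytene arrays, but 0.10 higher on the KO than on the WT round spermatid array. Prss46 was likewise lower in KO pachytene spermatocytes and 0.02 higher in KO round spermatids. Prss41 was 0.05 higher in round spermatids than in the mean of the pachytene arrays in KO, and lower than both pachytene arrays in WT. These values are smaller than the SE of the interaction of the same gene.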

How the results depend on the processing

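The counts between the cell types rest on 2 spermatid arrays. The fits that leave out 1 of them are the within-genotype fits given above, so they are not a further check. A fit with 4 groups, in which each spermatid group has 1 array, was also run. It is not among the alternatives counted next. Of the 18 called genes 13 kept their call and direction in all 14 alternatives, and the 5 others were Prss35, Prss37, Prss38, Prss42 and Prss48. Not all 14 could change a member's values. No member has more than 1 cluster, so the cluster of highest variance left the members' values as they were. The other filters also left their differences unchanged. Among the 13, Tmprss11b and Tmprss11f reached log2 7 only on spermatid arrays, so with that filter they had to differ to be tested. The member count was 14 with the replicate block, without Prss35, Prss38, Prss42 and Prss48, and 17, without Prss38, with the WT arrays alone, a setting chosen after seeing the data. Over all genes the count was 6255, and leaving out single arrays gave 2786 to 8849, the lowest without the WT and 3577 without the KO round spermatid array. For the members that range was 13 to 26. The 26 came without KO pachytene array 1, when 8 more genes passed: Prss23, which rose, and Prss33, Prss34, Tmprss2, Tmprss3, Tmprss4, Tmprss5 and Tmprss6, which fell. Rises of at least 2-fold were 10, and 6 to 10 with single arrays left out (6 without KO pachytene array 2), and falls of that size were 0, and 0 to 1 with single arrays left out (Prss43, without KO pachytene array 1 or the KO round spermatid array), and 1 with the WT arrays alone. KO against WT in pachytene spermatocytes passed 0 genes, 43 with the replicate block, 88 with the KO numbers crossed (a pairing chosen after seeing the data) and 0 to 2 with single arrays left out (2 without WT pachytene array 1). Over both cell types it passed 0 genes, 1 with 32 added to the intensity, 2 with a trended and robust prior, 2 with the replicate block and 0 to 21 with single arrays left out (21 without KO pachytene array 1, 4 without KO pachytene array 2). The interaction passed 0 genes and 1 with the replicate block. None of these were Prss or Tmprss genes. In round spermatids 69 genes differed 2-fold between the genotypes, 343 at 1.5-fold (1 of them a member), and 0 passed in a limma fit that lends the 2 arrays the spread of the pachytene pairs. The causes were not tested. The interaction cannot be fitted without a round spermatid array.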
